A study of Mus musculus with 19 samples.

Results

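The genes described here are 10 named genes of the amino acid and folate arm of the ATF4 stress response: Asns, Mthfd2, Trib3, Atf4, Atf5, Ddit3, Psat1, Phgdh, Gdf15 and Fgf21. They were measured on 19 microarrays of mouse tibialis anterior, a fast muscle of the shin, 1 array per sample. A gene counted as measured if the array held a probe set that the annotation ties to its symbol alone, which was so for 9 of the 10 (all but Gdf15) and for 12393 genes in all. The probe set with the highest mean over the 19 arrays stood for its gene. Of the 9, 8 passed the filter on dim genes and were tested among 7436 genes, and Fgf21 did not pass. The list was chosen by signal on these same arrays, since it was drawn up after the height of Asns, Mthfd2 and Trib3 in older knockout muscle had been seen. The differences of older knockout muscle are therefore a description, and their adjusted p-values only place a gene among all genes tested.

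The 4 groups were aged desmin knockout muscle (KO_Aged, 4 arrays), adult desmin knockout muscle (KO_Adult, 5 arrays), aged wild-type muscle (WT_Aged, 5 arrays) and adult wild-type muscle (WT_Adult, 5 arrays). The knockout mice are labelled Des(-/-) on 129/SVE, and the wild-type mice are of strain 129/SVE. Desmin is the intermediate filament protein that links the contractile units of a muscle fibre to one another and to its membrane. Adult mice were 7 to 9 weeks old and aged mice 12 to 14 months old. In every group the muscle had gone through 50 eccentric contractions, that is, it was stretched while it contracted, and RNA was taken 12 h later. Muscle without such contractions was not analysed here, so each level belongs to exercised muscle and the response to the exercise itself cannot be read from it.

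As background, cells slow general protein synthesis when a kinase phosphorylates the initiation factor eIF2, and under that condition the mRNA of the transcription factor ATF4 is translated more. ATF4 binds, with C/EBP partners, to composite elements in genes for amino acid synthesis, amino acid uptake, tRNA charging and mitochondrial folate metabolism. In skeletal muscle this programme is known from amino acid shortage, from endoplasmic reticulum stress and from disorders of mitochondria, where muscle can release FGF21 and GDF15. ATF4 is controlled in large part at the level of translation, so its mRNA need not follow its activity.

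The promoter windows of the 4 enzyme and feedback genes that were highest in older knockout muscle are shown because the composite element is a short sequence that can be looked for in them. Each window runs from 250 bases before to 50 bases after the annotated start in the RefSeq annotation of GRCm38.p6, and all 4 genes lie on the minus strand. The windows are chr6:7693160-7693459 for Asns, chr6:83317555-83317854 for Mthfd2, chr2:152344011-152344310 for Trib3 and chr19:15925010-15925309 for Psat1, which has a second annotated start whose window, not shown, held no match. Capitals mark matches to TGNTGNAA, searched on both strands.
Asns: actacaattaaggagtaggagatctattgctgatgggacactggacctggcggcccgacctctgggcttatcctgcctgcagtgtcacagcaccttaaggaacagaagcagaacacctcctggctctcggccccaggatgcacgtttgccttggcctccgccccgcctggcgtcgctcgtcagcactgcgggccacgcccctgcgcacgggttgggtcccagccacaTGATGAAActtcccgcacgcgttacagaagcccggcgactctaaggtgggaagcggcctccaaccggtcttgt
Mthfd2: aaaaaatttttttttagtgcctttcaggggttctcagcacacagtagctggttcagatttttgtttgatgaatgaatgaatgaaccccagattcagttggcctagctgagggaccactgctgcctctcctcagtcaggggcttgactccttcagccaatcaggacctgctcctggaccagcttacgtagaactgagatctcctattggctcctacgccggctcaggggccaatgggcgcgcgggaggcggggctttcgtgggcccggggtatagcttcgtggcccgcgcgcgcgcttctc
Trib3: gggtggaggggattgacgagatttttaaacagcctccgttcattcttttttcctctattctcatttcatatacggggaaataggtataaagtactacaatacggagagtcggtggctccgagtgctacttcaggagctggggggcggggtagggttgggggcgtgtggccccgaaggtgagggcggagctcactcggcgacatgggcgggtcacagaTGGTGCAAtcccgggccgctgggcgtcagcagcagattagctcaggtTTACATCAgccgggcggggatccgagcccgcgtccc
Psat1: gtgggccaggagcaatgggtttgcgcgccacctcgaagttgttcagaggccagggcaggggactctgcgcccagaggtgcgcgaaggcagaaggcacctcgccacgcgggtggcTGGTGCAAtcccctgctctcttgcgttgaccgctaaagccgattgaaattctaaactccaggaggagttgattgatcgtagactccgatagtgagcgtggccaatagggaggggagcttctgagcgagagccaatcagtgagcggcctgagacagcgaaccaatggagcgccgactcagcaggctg

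The Asns window held TGATGAAA at bases -23 to -16 from the start. The Trib3 window held TGGTGCAA at -33 to -26, and on the other strand TGATGTAA, printed as TTACATCA, at 15 to 22. The Psat1 window held TGGTGCAA at -136 to -129, and no match was in the Mthfd2 window. The narrower motif TGATGNAA, whose matches all belong to TGNTGNAA as well, was in 3 of the 13 windows of the 10 genes (those of Asns, Trib3 and Fgf21) and in 3.97% of 32851 mouse promoter windows. TGNTGNAA was in 5 of the 13 windows (these with Psat1 and Phgdh) and in 14.8% of all windows. A match is only these letters in this window, and binding was not measured.

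The labels fitted the targeted gene. Des signal was 72.75 to 636.5 in KO_Aged and 310.8 to 878.9 in KO_Adult, against 10750 to 12740 in WT_Aged and 13700 to 22310 in WT_Adult. Summed signal of 12 fibre genes was 287500 to 328500 in KO_Aged, 260400 to 313700 in KO_Adult, 216400 to 283100 in WT_Aged and 243800 to 426900 in WT_Adult, and none of 66 measured marker genes was listed at 0. Added poly-A control RNAs divided the arrays: they gave signal on 8, all 5 of WT_Aged and replicates 3, 4 and 5 of KO_Adult, with dap at 1184 to 3103 against 1 to 17.4 on the other 11. The same 8 arrays had 18S ribosomal RNA signal of 5835 to 19660, against 29.1 to 181 on the other 11. The alternatives took this split as a term in the fit or left out the arrays with poly-A signal. Beyond that, the part of the split in the results was not tested. The 3' to 5' signal ratio of Gapdh, a measure of RNA integrity, was 8.61 in KO_Aged replicate 2 and 5.01 in KO_Aged replicate 3, while the remaining 17 arrays had 0.766 to 0.968. The comparison of KO_Aged with WT_Adult lies wholly on arrays without poly-A signal, although genotype and age both differ in it. That with WT_Aged lies wholly across the split, where genotype and split cannot be told apart without the KO_Adult arrays, and that with KO_Adult lies partly across it. The labels do not say that the arrays of a group come from separate animals, and p-values measure the spread between arrays, which may be technical.

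Older knockout muscle stood apart for 4 of the 8 tested genes. Signals of Asns, Mthfd2, Trib3 and Psat1 on all 4 KO_Aged arrays were above those on all 15 other arrays, an arrangement found for 1.53% of all tested genes. On the normalized values it remained for Asns and Trib3, against 1.14% of all genes. Among the arrays without poly-A signal it held, on normalized values, for 5 genes, Ddit3 being the fifth, against 4.81%. For Atf4, Atf5 and Phgdh, and the untested Fgf21, KO_Aged overlapped other groups, although its Atf4 arrays all lay below those of WT_Aged. Where single pairs of groups are said below not to overlap, the share of all genes so arranged was not counted. In the fit over all genes (limma, Benjamini-Hochberg adjusted p under 0.05), 4 of the 8 were higher in KO_Aged than in WT_Aged, 4 than in KO_Adult and 6 than in WT_Adult. Trib3 is in each of these counts but was tested only because of its height in KO_Aged, as given with its values. Of the 7 other genes 3 were higher than in WT_Aged, beside 17.1% of all genes, 3 than in KO_Adult, beside 3.71%, and 5 than in WT_Adult, beside 12.5%. The rule used the same contrasts, and nothing is read from these shares. None was lower in these 3 comparisons, also at an unadjusted p under 0.05. The 3 comparisons share the KO_Aged arrays and are not independent of one another. The median difference of the 7 was 0.35 against WT_Aged, 0.61 against KO_Adult and 1.2 against WT_Adult on the log2 scale, beside medians of 0.08, 0.03 and 0.06 over all genes. Without KO_Aged replicates 2 and 3, whose Gapdh ratios were high, 2, 2 and 3 of the 8 were higher in the same order of comparisons, Trib3 among them against WT_Aged and against WT_Adult. Of all genes, 1055, 115 and 974 were called in that setting, in either direction.

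**Figure D1:**
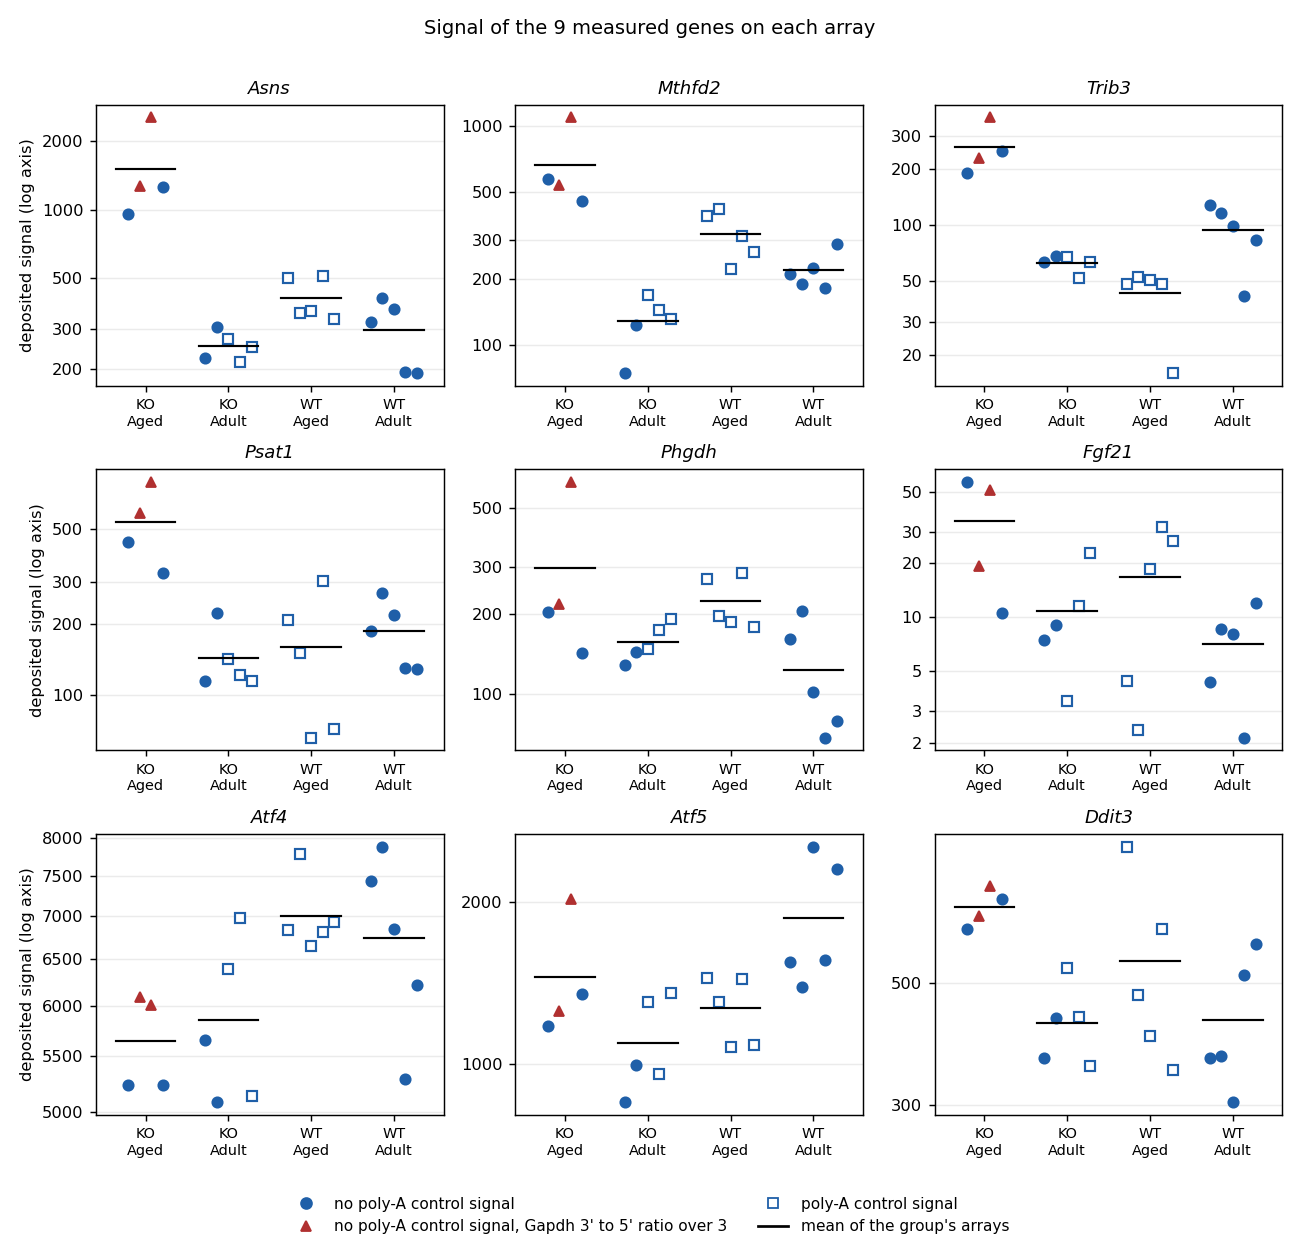
Deposited signal (log axis) of the 9 measured genes on each of the 19 arrays, by group, with a line at the group's mean and the marker showing poly-A control signal and a high Gapdh ratio. The KO_Aged arrays sit above all 15 others for Asns, Mthfd2, Trib3 and Psat1, and overlap with other groups for Atf4, Atf5, Ddit3, Phgdh and Fgf21.

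Asns encodes asparagine synthetase, which makes asparagine from aspartate and glutamine and is among the best known ATF4 targets. Its signal was 960.4, 1266, 2538 and 1251 on the KO_Aged arrays and 222.5, 306.5, 269.3, 213.1 and 249.1 on the KO_Adult arrays. It was 501.2, 352, 359.3, 510.8 and 329.1 on the WT_Aged arrays and 319.3, 408.7, 366.8, 192.8 and 191.5 on the WT_Adult arrays. The lowest KO_Aged array thus lay above the highest of any other group, and the other groups overlapped one another in part. Mean signal was 1504 ± 703.4 in KO_Aged (SD, n = 4), 252.1 ± 37.64 in KO_Adult, 410.5 ± 87.96 in WT_Aged and 295.8 ± 99.78 in WT_Adult (SD, n = 5 each). Asns was higher in KO_Aged than in WT_Adult by 2.35 ± 0.30 (log2 difference ± SE), a fold of 5.1, with an adjusted p of 4.11e-05. It was higher than in KO_Adult by 2.35 ± 0.30 (5.11-fold, adjusted p = 0.000316) and than in WT_Aged by 1.73 ± 0.30 (3.31-fold, adjusted p = 0.000367). From the top of 7436 genes these differences stood at ranks 37, 8 and 81. Without the arrays of high Gapdh ratio the difference from WT_Adult was 1.98 (adjusted p = 0.00143), and with the arrays that had poly-A signal left out as well it was 1.98 (adjusted p = 0.0197). When the poly-A split was added as a term in the fit, the difference from WT_Aged was 1.58 and no longer passed (adjusted p = 0.0711). On the arrays without poly-A signal only, the difference from KO_Adult was 2.26 and did not pass (adjusted p = 0.0542). The second Asns probe set gave differences of 2.16, 2.02 and 1.61 in the same order, and its KO_Aged arrays, at 493.4 to 1383, were also above all others.

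Mthfd2 encodes the mitochondrial enzyme that oxidises methylene-tetrahydrofolate, a step of one-carbon metabolism that is scarce in most adult tissues and high in dividing cells. Its signal was 572.9, 536.5, 1090 and 453.5 on the KO_Aged arrays and 74.33, 123.5, 169.6, 143.9 and 130.5 on the KO_Adult arrays. It was 388.9, 416.2, 221.5, 314.6 and 264 on the WT_Aged arrays and 209.8, 190.2, 225.3, 181.1 and 289.3 on the WT_Adult arrays. KO_Aged was the highest group and KO_Adult the lowest, and no KO_Adult array reached the lowest array of any other group. The highest WT_Aged arrays came near the lowest KO_Aged array, and on normalized values they overlapped. Mean signal was 663.1 ± 288.8 in KO_Aged (SD, n = 4), 128.4 ± 34.97 in KO_Adult, 321 ± 81.95 in WT_Aged and 219.1 ± 42.8 in WT_Adult (SD, n = 5 each). Mthfd2 was higher in KO_Aged than in KO_Adult by 2.14 ± 0.26 (4.42-fold, adjusted p = 0.00023), than in WT_Adult by 1.55 ± 0.26 (2.93-fold, adjusted p = 0.000419) and than in WT_Aged by 0.92 ± 0.26 (1.89-fold, adjusted p = 0.0124). These stood at ranks 10, 115 and 574 of 7436. The difference from WT_Aged was 0.65 without KO_Aged replicate 3 (adjusted p = 0.0602) and 0.57 without both arrays of high Gapdh ratio (adjusted p = 0.187), so that this call rested on those arrays. With the poly-A split as a term it was 1.5 (adjusted p = 0.0423). The difference from WT_Adult was 1.2 with both left out (adjusted p = 0.0109). The second Mthfd2 probe set gave 1.92, 1.74 and 1.04 against KO_Adult, WT_Adult and WT_Aged, with all KO_Aged arrays, at 410.2 to 967.7, above all others.

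Trib3 encodes a pseudokinase that ATF4 and CHOP induce and that in turn restrains ATF4. Its signal was 190, 229.3, 379.6 and 250 on the KO_Aged arrays and 62.83, 67.71, 67.54, 51.71 and 63.07 on the KO_Adult arrays. It was 47.88, 52.32, 50.69, 47.91 and 15.9 on the WT_Aged arrays and 127.6, 116.2, 98.34, 41.38 and 83.22 on the WT_Adult arrays. KO_Aged lay above every other array with no overlap, and the WT_Adult arrays spread from within the range of WT_Aged to above every KO_Adult array. Mean signal was 262.2 ± 82.11 in KO_Aged (SD, n = 4), 62.57 ± 6.51 in KO_Adult, 42.94 ± 15.23 in WT_Aged and 93.35 ± 33.63 in WT_Adult (SD, n = 5 each). Trib3 was higher in KO_Aged than in WT_Aged by 2.41 ± 0.32 (5.31-fold, adjusted p = 4.13e-05), than in KO_Adult by 1.79 ± 0.32 (3.45-fold, adjusted p = 0.00366) and than in WT_Adult by 1.58 ± 0.32 (2.98-fold, adjusted p = 0.00185). Trib3 was a dim gene that passed the filter through its KO_Aged arrays: its mean level lay at percentile 41.3 of all genes, and at 37.7 without KO_Aged, where 40 was needed. A gene admitted in this way had to differ, and its calls add no support; in the fit with no filter on dim genes the adjusted p was 0.00013, 0.00982 and 0.00463 in the same order. Without the arrays of high Gapdh ratio the differences were 2.06 from WT_Aged (adjusted p = 0.0027), 1.44 from KO_Adult (adjusted p = 0.074) and 1.23 from WT_Adult (adjusted p = 0.0457). Without the arrays that had poly-A signal as well, the difference from WT_Adult was 1.23 with an adjusted p of 0.084. The second Trib3 probe set, at 170.3 to 214.5 in KO_Aged and 6.396 to 130.4 elsewhere, gave 1.68, 2.06 and 1.66 from WT_Aged, KO_Adult and WT_Adult. In a limma fit of single probe sets the adjusted p was 0.0376, 0.0465 and 0.0542, so that the last did not pass.

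Psat1 and Phgdh encode enzymes of serine synthesis, which feeds the folate cycle: phosphoglycerate dehydrogenase takes the first step and phosphoserine aminotransferase the next. Psat1 signal was 441.1, 585.3, 789.2 and 327.3 on the KO_Aged arrays and 114.8, 220.6, 142, 121.9 and 114.4 on the KO_Adult arrays. It was 206.4, 150.4, 66.16, 300.8 and 72.1 on the WT_Aged arrays and 185.8, 270, 218, 129.8 and 128.3 on the WT_Adult arrays. All KO_Aged arrays were above all others, while the remaining groups overlapped. Psat1 was higher in KO_Aged than in WT_Aged by 1.78 ± 0.41 (3.44-fold, adjusted p = 0.00326), than in KO_Adult by 1.67 ± 0.41 (3.18-fold, adjusted p = 0.0199) and than in WT_Adult by 1.53 ± 0.41 (2.89-fold, adjusted p = 0.0109). With KO_Aged replicates 2 and 3 left out the 3 differences were 1.29, 1.17 and 1.04, with adjusted p-values of 0.0919, 0.238 and 0.17, and with the poly-A split as a term the first was 1.43 (adjusted p = 0.208) and the second 1.46 (adjusted p = 0.0836). The difference from KO_Adult also missed the threshold without KO_Aged replicate 2 (1.56, adjusted p = 0.0518) and without replicate 3 (1.44, adjusted p = 0.0832).

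The second Psat1 probe set gave another order. Its signal was 203.9, 278.6, 331.4 and 178.7 in KO_Aged and 58.29, 121.8, 144.1, 146.1 and 70.94 in KO_Adult. It was 291.7, 248.7, 94.28, 319.8 and 131.3 in WT_Aged and 113.5, 112.1, 37.01, 64.58 and 48.84 in WT_Adult. On this probe set both aged groups were high and overlapped. In a fit of single probe sets, Psat1 by this probe set was higher by 1.84 than in WT_Adult (adjusted p = 0.0104), while the difference from WT_Aged was 0.22 (adjusted p = 0.764) and that from KO_Adult 1.04 (adjusted p = 0.192). As the mean of both probe sets the difference from WT_Aged was 1.0 and did not pass (adjusted p = 0.0608). The suffix of this probe set marks probes shared by several transcripts.

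The 4 Phgdh probe sets disagreed as well. On the main one, signal was 202.7, 217.2, 628.1 and 142.4 in KO_Aged and 128, 143, 147.6, 173.1 and 191.4 in KO_Adult. It was 271.6, 195.5, 185.5, 284.7 and 178 in WT_Aged and 160.9, 205.6, 101.2, 68.25 and 78.48 in WT_Adult. One KO_Aged array, replicate 3, stood far above the others of its group, and the groups overlapped. Phgdh was higher in KO_Aged than in WT_Adult by 1.2 ± 0.39 (2.3-fold, adjusted p = 0.0301), a call that was lost without KO_Aged replicate 3 (0.76, adjusted p = 0.133), without KO_Aged replicate 2 (1.19, adjusted p = 0.0606) or without WT_Adult replicates 3, 4 or 5 singly (1.01 to 1.19, adjusted p = 0.0557 to 0.071). The differences from WT_Aged, 0.12 ± 0.39, and from KO_Adult, 0.54 ± 0.39, did not pass (adjusted p = 0.843 and 0.448). One of the other probe sets was higher in KO_Aged than on any other array, at 93.85 to 400.1 against at most 80.7, with differences of 2.79, 2.09 and 3.28 from WT_Aged, KO_Adult and WT_Adult. Another followed the split of the arrays, with a mean of 53.1 on the 8 arrays with poly-A signal and 255.9 on the 11 without. As the mean of its 4 probe sets Phgdh was higher in KO_Aged than in all 3 groups, by 1.48 against WT_Aged (adjusted p = 0.00111), 1.06 against KO_Adult (adjusted p = 0.0372) and 1.46 against WT_Adult (adjusted p = 0.00166).

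**Figure D2:**
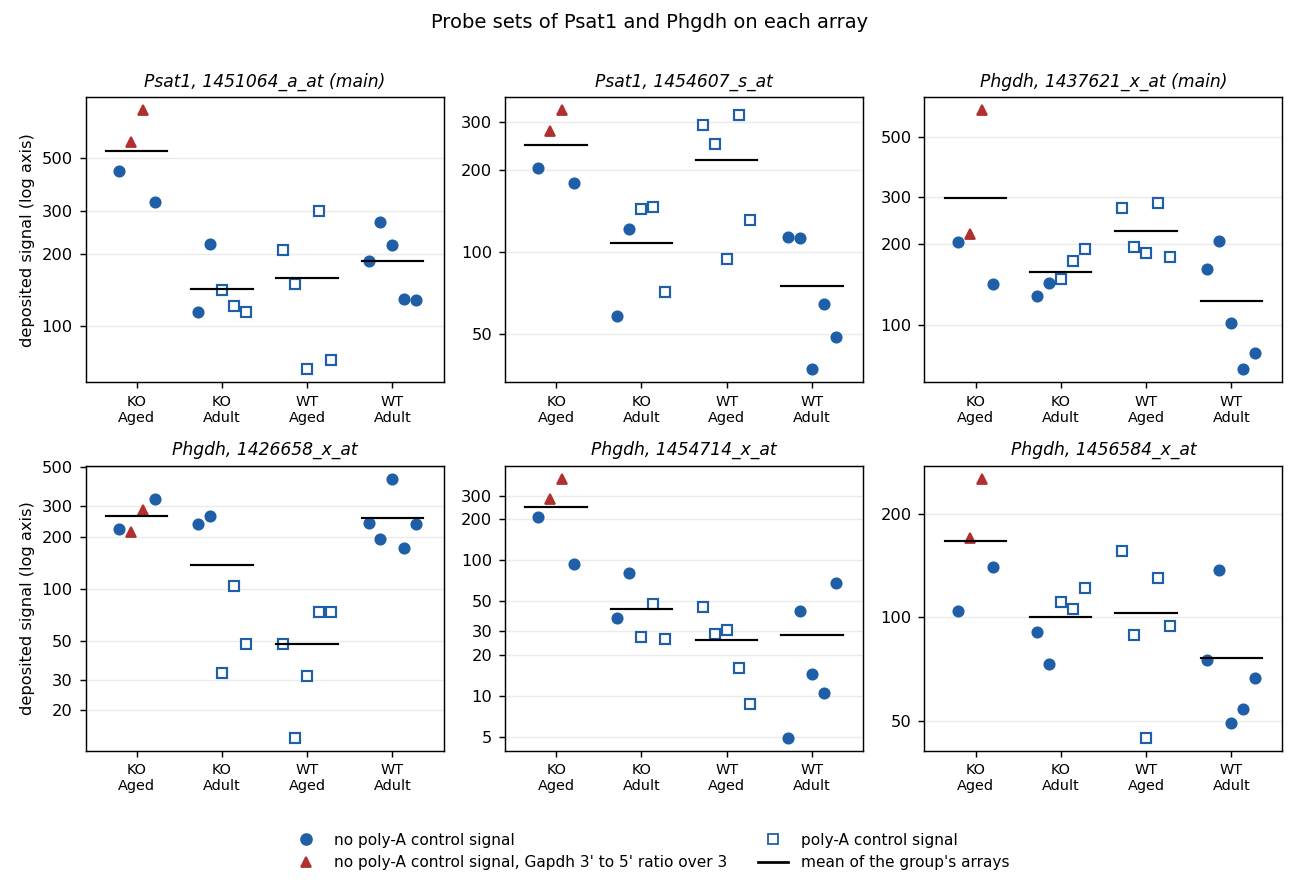
Deposited signal (log axis) of each probe set of Psat1 and Phgdh on every array, by group, with a line at the group's mean and the same markers for poly-A signal and Gapdh ratio. The KO_Aged arrays were above all others on the main Psat1 probe set and on 1 of the 4 Phgdh probe sets only.

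The transcription factors of the set did not share the height of Asns in older knockout muscle. Atf4 itself was an abundant transcript, at percentile 97.4 of all genes. Its signal was 5239, 6091, 6004 and 5235 on the KO_Aged arrays and 5654, 5084, 6394, 6976 and 5137 on the KO_Adult arrays. It was 6833, 7783, 6650, 6809 and 6922 on the WT_Aged arrays and 7433, 7886, 6846, 5291 and 6212 on the WT_Adult arrays. Every KO_Aged array was below every WT_Aged array, and KO_Aged overlapped both adult groups. The Atf4 differences of KO_Aged were -0.23 ± 0.13 from WT_Aged (adjusted p = 0.211), 0.08 ± 0.13 from KO_Adult (adjusted p = 0.791) and -0.18 ± 0.13 from WT_Adult (adjusted p = 0.345), and Atf4 passed in none of the 6 comparisons made. These values are those of the main probe set. A second Atf4 probe set had a signal of 535.2 to 1058 in KO_Aged against 1148 to 2220 in WT_Aged. In the fit of single probe sets it differed by -1.1 from WT_Aged (adjusted p = 0.095) and -0.76 from KO_Adult (adjusted p = 0.381). From WT_Adult it differed by -0.12 (adjusted p = 0.896). The third Atf4 probe set was dim, with a mean signal of 10.36. The arrays measured RNA, and ATF4 protein was not measured.

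Ddit3 encodes CHOP, a partner of ATF4 that is induced under prolonged stress. Its signal was 625.7, 659.5, 750.5 and 710.5 on the KO_Aged arrays and 364.5, 432.3, 532.4, 433.2 and 353.8 on the KO_Adult arrays. It was 883.5, 475.7, 400.8, 626.5 and 347.6 on the WT_Aged arrays and 365, 368, 303.7, 516.5 and 587 on the WT_Adult arrays. The KO_Aged arrays were above both adult groups with no overlap, and WT_Aged replicates 1 and 4 reached their level. Ddit3 was higher in KO_Aged than in WT_Adult by 0.71 ± 0.23 (1.63-fold, adjusted p = 0.0294). That call was lost when KO_Aged replicate 2, 3 or 4, or WT_Adult replicate 1, 2 or 3, was left out singly (0.60 to 0.70, adjusted p = 0.0544 to 0.0808). The differences from KO_Adult, 0.61 ± 0.23, and from WT_Aged, 0.35 ± 0.23, did not pass (adjusted p = 0.104 and 0.253).

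Atf5 encodes a related factor that is linked to mitochondrial stress. Its signal was 1178, 1254, 2026 and 1351 on the KO_Aged arrays and 848.2, 992.6, 1301, 958.3 and 1357 on the KO_Adult arrays. It was 1447, 1305, 1075, 1436 and 1083 on the WT_Aged arrays and 1548, 1387, 2540, 1563 and 2309 on the WT_Adult arrays. For Atf5 the highest group was WT_Adult, every array of which lay above every KO_Adult array, and KO_Aged overlapped all 3 other groups. The Atf5 differences of KO_Aged were 0.15 ± 0.21 from WT_Aged, 0.34 ± 0.21 from KO_Adult and -0.42 ± 0.21 from WT_Adult, with adjusted p-values of 0.621, 0.343 and 0.149.

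Fgf21 and Gdf15 encode secreted factors that stressed muscle can release. Fgf21 was near the lower limit of the arrays, at percentile 14 of all genes. Its signal was 56.99, 19.34, 51.3 and 10.65 on the KO_Aged arrays and 7.522, 9.026, 3.414, 11.6 and 22.93 on the KO_Adult arrays. It was 4.4, 2.348, 18.71, 31.86 and 26.58 on the WT_Aged arrays and 4.376, 8.638, 8.122, 2.136 and 12.1 on the WT_Adult arrays. KO_Aged replicates 1 and 3 gave the highest values of all, and replicate 4 lay among the adult arrays. In the fit with no filter on dim genes its differences were 1.63 ± 0.53 from WT_Adult (adjusted p = 0.0504), 0.99 ± 0.53 from KO_Adult (adjusted p = 0.335) and 0.70 ± 0.53 from WT_Aged (adjusted p = 0.39). Gdf15 was not analysed here.

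**Figure D3:**
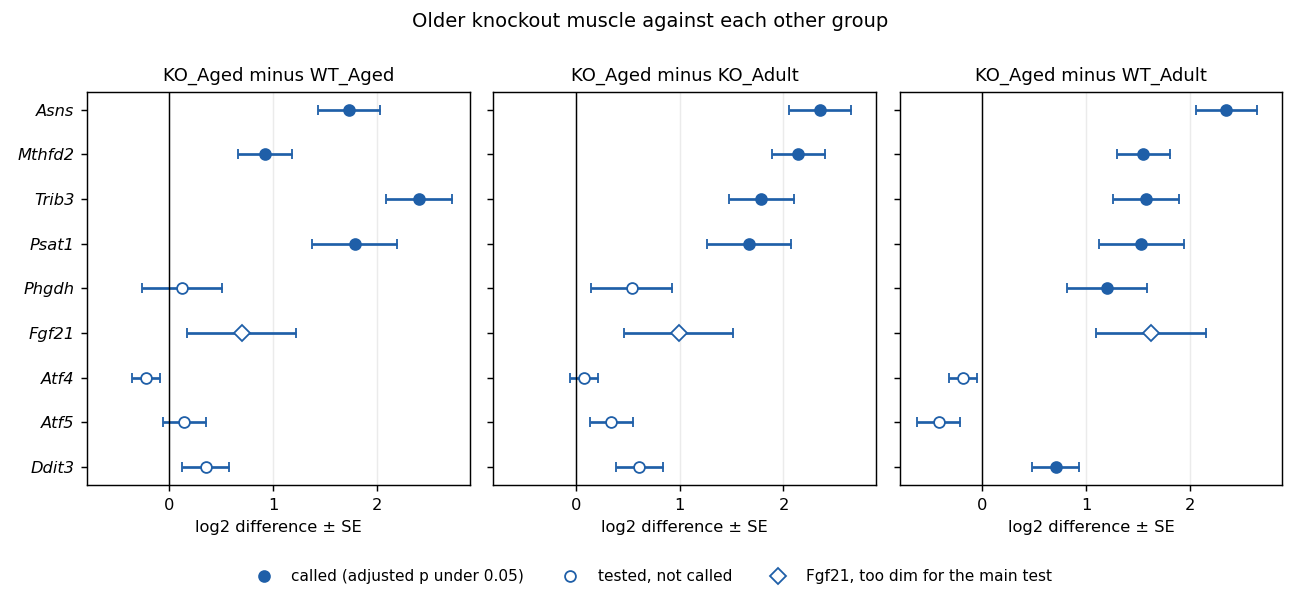
Log2 difference (± SE) of each measured gene in KO_Aged against each of the other 3 groups, filled where the adjusted p was under 0.05, with Fgf21 as a diamond from the fit without the filter on dim genes. By the main probe sets Asns, Mthfd2, Trib3 and Psat1 passed in all 3 panels, Ddit3 and Phgdh against WT_Adult, and Atf4 lay near 0 throughout.

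The remaining groups were compared with one another for the same 8 genes. Between KO_Adult and WT_Adult, Atf5 was the single gene of the 8 that passed, lower in KO_Adult by 0.76 on the log2 scale (difference -0.76 ± 0.20, adjusted p = 0.0125), beside 9.39% of all genes called lower. Mthfd2 was next, at -0.59 ± 0.24 (adjusted p = 0.103), while Asns was level at -0.00 ± 0.28 (adjusted p = 0.996) and Trib3 at -0.21 ± 0.30 (adjusted p = 0.66). Between WT_Aged and WT_Adult, Phgdh (1.08 ± 0.37, adjusted p = 0.0263) and Mthfd2 (0.63 ± 0.24, adjusted p = 0.0473) were higher in WT_Aged, beside 17.9% of all genes. Atf5 (-0.57 ± 0.20, adjusted p = 0.0292) and Trib3 (-0.83 ± 0.30, adjusted p = 0.0356) were lower, beside 21% of all genes. Asns differed by 0.62 ± 0.28 there and missed the threshold (adjusted p = 0.0835). WT_Aged and WT_Adult lie wholly on opposite sides of the poly-A split, where age and the split cannot be told apart from these arrays alone. With the split as a term none of these 4 calls remained, in limma, and 1 gene of the 8 had an unadjusted p under 0.05. Other probe sets of these genes differed in the fit of single probe sets. Of Phgdh, 1 gave -2.22 (adjusted p = 0.00384), and the others beside the main one 0.49 and 0.55. The second Trib3 probe set gave -0.03 (adjusted p = 0.978) and that of Mthfd2 0.69 (adjusted p = 0.053). That of Psat1 gave 1.62 (adjusted p = 0.00844), where the main one gave -0.25.

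The genotype by age interaction asks whether the knockout differs from wild type by more in aged than in adult muscle. Leaving Trib3 aside, it was positive and passed for 4 of 7 genes, beside 14.5% of all genes: Psat1 (1.92 ± 0.56, adjusted p = 0.0192), Asns (1.73 ± 0.41, adjusted p = 0.00572), Mthfd2 (1.51 ± 0.36, adjusted p = 0.0057) and Atf5 (0.91 ± 0.28, adjusted p = 0.0265). Trib3, tested only through its KO_Aged arrays, had 2.62 ± 0.44 (adjusted p = 0.000522). In the fit of single probe sets the second Psat1 probe set went the opposite way, at -0.58 (adjusted p = 0.53). Those of Asns (1.475, adjusted p = 0.0647) and Trib3 (2.08, adjusted p = 0.0613) did not pass, and that of Mthfd2 did (1.23, adjusted p = 0.0305). For Atf5 the 2 differences between knockout and wild type were 0.15 in aged and -0.76 in adult muscle, of which only the second passed. With the poly-A split as a term no member passed in limma, where 3 had an unadjusted p under 0.05, and the values were 1.35 for Psat1, 1.49 for Asns, 2.43 for Mthfd2, 1.36 for Atf5 and 2.55 for Trib3 (adjusted p = 0.185 to 0.496). That term can be estimated only through the 5 KO_Adult arrays. Once the arrays of high Gapdh ratio were left out, Trib3 (2.27, adjusted p = 0.00594), Mthfd2 (1.16, adjusted p = 0.0345) and Asns (1.36, adjusted p = 0.0369) passed, and Psat1 did not (1.42, adjusted p = 0.132).

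**Figure D4:**
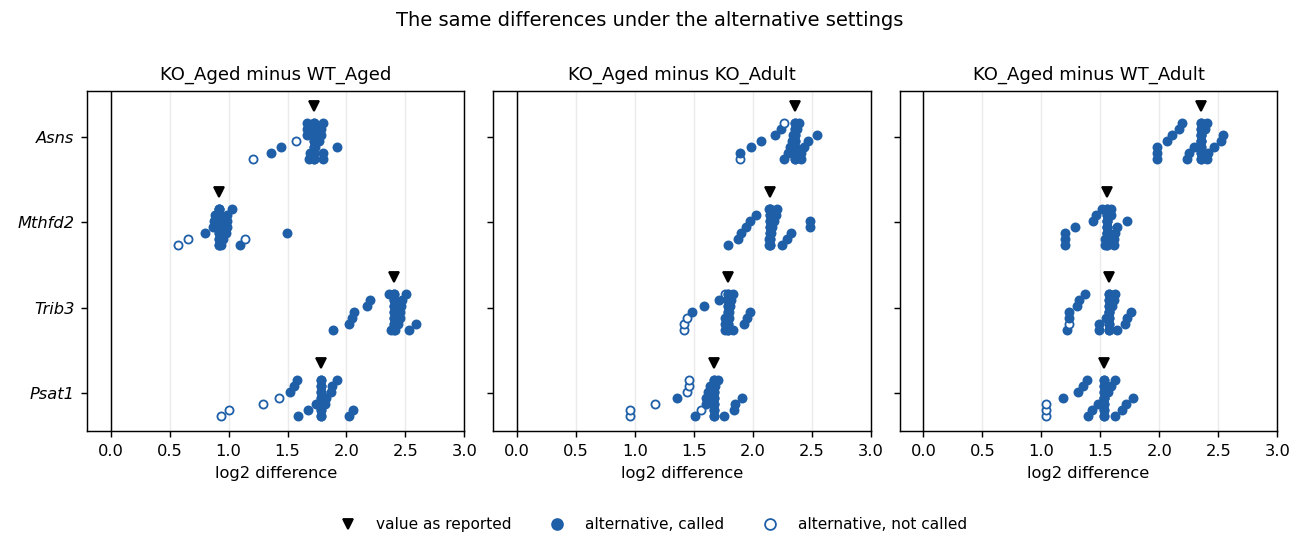
Log2 differences of Asns, Mthfd2, Trib3 and Psat1 in KO_Aged against each other group, as reported (triangle) and under the alternative settings (circles, filled where called, with vertical spread only to separate points). The stricter threshold of 0.01, which leaves the differences unchanged, is counted among the alternatives but not drawn. Every point lies above 0, and among 31 to 34 alternatives a comparison Psat1 missed the threshold in 4 against WT_Aged, 8 against KO_Adult and 4 against WT_Adult, Mthfd2 in 4 against WT_Aged, Asns in 2 against WT_Aged and 2 against KO_Adult, and Trib3 in 4 against KO_Adult and 1 against WT_Adult.

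Within KO_Aged the arrays differed among themselves. Replicate 3, whose Gapdh ratio was 5.01, gave the highest signal of its group for Asns, Mthfd2, Trib3, Atf5, Ddit3, Psat1 and Phgdh. The highest KO_Aged array exceeded the lowest by 4.41-fold for Phgdh, 2.64-fold for Asns, 2.41-fold for Psat1, 2.4-fold for Mthfd2 and 2-fold for Trib3, and by 1.16-fold for Atf4. The part of RNA quality in this spread was not tested. The 2 KO_Aged arrays with a low Gapdh ratio, replicates 1 and 4, were themselves above every array of the other groups for Asns (960.4 and 1251), Mthfd2 (572.9 and 453.5), Trib3 (190 and 250) and Psat1 (441.1 and 327.3), as they were for 3.59% of all genes.

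Across all 19 arrays Asns and Psat1 (Pearson r = 0.84), Asns and Mthfd2 (0.838), Trib3 and Psat1 (0.833) and Asns and Trib3 (0.782) varied together in normalized log2 values. These are descriptions, and the points share the groups and the array split. With the KO_Aged arrays left out they were 0.531, 0.515, 0.539 and 0.08, and Mthfd2 and Trib3 gave 0.561 over all arrays and -0.276 without KO_Aged. Asns and Atf4 gave -0.022. The genes most like Asns by Pearson r over the 19 arrays were Rpl7a (0.93), Pgd (0.899), Aldh18a1 (0.891), Rps18 (0.883) and Rps3a1 (0.877), of which 3 encode ribosomal proteins. Those most like Mthfd2 were Rps18 (0.857), Asns (0.838), Rpl4 (0.832), Gspt1 (0.823) and Pla2g7 (0.817). Those most like Trib3 were Anxa5 (0.882), Tnfrsf19 (0.865), Vat1 (0.86), Snapc2 (0.859) and Rnf44 (0.857). No gene was on more than 1 of the lists except Rps18, which was on those of Asns and Mthfd2. Pgd, the gene of phosphogluconate dehydrogenase, had a signal of 891.2 to 3034 in KO_Aged, 495.2 to 733.1 in KO_Adult, 548.4 to 913.3 in WT_Aged and 373.9 to 752.4 in WT_Adult.

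Other genes of the pathway did not rise as a block with Asns. They were described in 7 lists, in the comparison of KO_Aged with WT_Adult, where calls went upward for 12.5% and downward for 12.3% of all genes, around a median of 0.06. Of 14 tested transcription factors and feedback genes, 3 passed as higher in KO_Aged and 5 as lower, and the list's median was -0.18. Chac1, whose enzyme degrades glutathione and which is a well known ATF4 target, was lower in KO_Aged by 1.93 on the log2 scale (-1.93 ± 0.29, adjusted p = 0.000179). Its signal was 202.5 to 492.4 in KO_Aged and 150.6 to 268.3 in KO_Adult, against 606.2 to 1115 in WT_Aged and 581.6 to 1469 in WT_Adult, so that it was low in the knockout at both ages. Between KO_Adult and WT_Adult Chac1 differed by -2.27 ± 0.27 (adjusted p = 3.07e-05). Ddit4, an inhibitor of mTORC1, was lower at 435.3 to 1088 in KO_Aged against 1412 to 1968 in WT_Adult (-1.54 ± 0.30, adjusted p = 0.0013). Stc2, a secreted glycoprotein gene, was lower by 2.32 (-2.32 ± 0.43, adjusted p = 0.00101), with its other probe set at -0.84. Nupr1, a stress-induced chromatin protein gene, was higher at 211.5 to 298.3 in KO_Aged against 104.1 to 181 in WT_Adult (0.91 ± 0.24, adjusted p = 0.0117).

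Of the eIF2 kinases and eIF2 subunits 1 of 8 tested was higher, with a median of 0.04. This was Eif2ak3, the gene of the endoplasmic reticulum kinase PERK, at 168.4 to 275.4 in KO_Aged against 94.95 to 174.5 in WT_Adult (0.83 ± 0.18, adjusted p = 0.00358), while its other probe sets ran from -0.79 to 0.01. Of the serine, proline and folate enzymes beyond the listed genes 1 of 6 tested was higher and 1 lower, with a median of 0.17. The higher one was Aldh18a1, whose enzyme starts proline synthesis, at 267.7 to 521.1 in KO_Aged against 74.44 to 193.5 in WT_Adult (1.5 ± 0.33, adjusted p = 0.0034). The lower one was Aldh1l1, a cytosolic folate enzyme gene (-0.95 ± 0.23, adjusted p = 0.00628). Of the amino acid transporters 2 of 6 were higher, with a median of 0.20. Slc1a5, a glutamine carrier, was at 228.7 to 394.7 in KO_Aged against 102.1 to 150.7 in WT_Adult (1.26 ± 0.26, adjusted p = 0.00241). Slc3a2, the heavy chain of several carriers, was at 1083 to 1961 in KO_Aged against 669.9 to 987.1 in WT_Adult (0.63 ± 0.20, adjusted p = 0.0264), above every array of the other groups in deposited signal.

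Of 16 aminoacyl-tRNA synthetases 1 was higher and 4 lower, while the median was 0.18, so the called genes and the list's median pointed in opposite directions. Lower were Vars (-0.96, adjusted p = 0.00575), Sars (-0.82, adjusted p = 0.0107) and Hars (-0.84, adjusted p = 0.0121), whose other probe set gave 0.61, and higher was Rars (0.35, adjusted p = 0.0349). These enzymes join valine, serine, histidine and arginine to their tRNAs. Of 16 endoplasmic reticulum chaperone genes 3 were higher, Dnajb11 (0.81, adjusted p = 0.00722), Pdia6 (0.69, adjusted p = 0.0313) and Ero1a (0.67, adjusted p = 0.0473), with a median of 0.11. The other Pdia6 probe set gave -0.65. Of 10 mitochondrial stress and protease genes 2 were lower, Clpp (-0.57, adjusted p = 0.0381) and Spg7 (-0.50, adjusted p = 0.0481), with a median of 0.03. Without the arrays of high Gapdh ratio the calls that stayed among the genes named here were Chac1, Stc2, Ddit4, Eif2ak3, Aldh1l1, Slc1a5, Hars and Spg7, and Aldh18a1 stood at 1.01 (adjusted p = 0.0883).

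**Figure D5:**
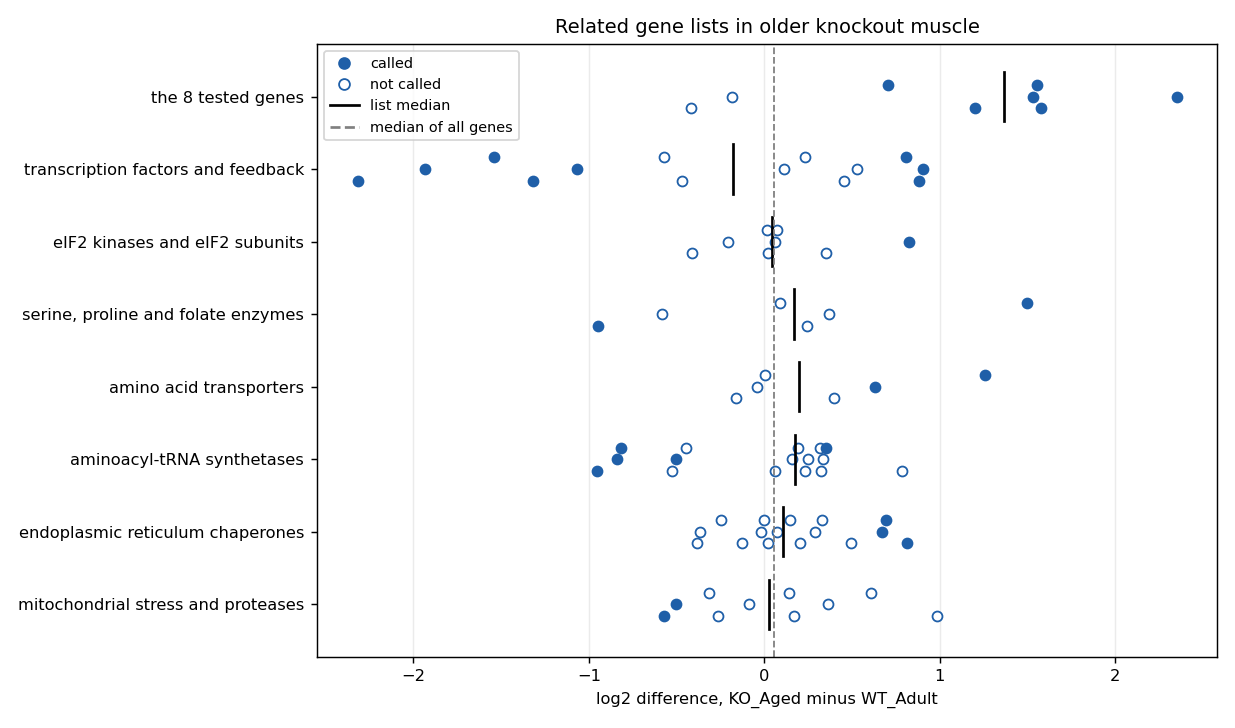
Log2 difference of KO_Aged minus WT_Adult for each tested gene of the 8 tested genes and of 7 related lists, filled where called, with a bar at each list's median and a dashed line at the median of all genes (vertical spread only separates points). The 8 genes, Trib3 included, have a median of 1.37, and the medians of the other lists lie between -0.18 and 0.20.

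Against WT_Aged, across the poly-A split, the same lists gave other counts, beside 17.1% of all genes called upward and 12.3% downward. Of the 14 transcription factors and feedback genes 7 were lower and 1 higher, led by Stc2 (-2.74 ± 0.43), Chac1 (-1.67 ± 0.29), Cebpb (-1.47 ± 0.30) and Ppp1r15a (-1.45 ± 0.30), the last encoding the phosphatase subunit that reverses eIF2 phosphorylation. Of 16 endoplasmic reticulum chaperone genes 6 were lower and 1 higher, led by Edem1 (-1.22 ± 0.21), Dnajc3 (-1.62 ± 0.29), Sdf2l1 (-2.39 ± 0.44) and Pdia4 (-2.91 ± 0.57), whose other probe set gave 0.98. Other probe sets gave -0.32 for Edem1, -1.61 to -0.03 for Dnajc3 and -0.88 for Stc2. Higher were 1 of 6 serine, proline and folate enzymes, 3 of 6 transporters (with 2 lower), 3 of 8 eIF2 kinase and subunit genes, 3 of 16 synthetases (with 1 lower) and 1 of 10 mitochondrial genes. Among them were Shmt2 (1.27 ± 0.31), the mitochondrial serine to glycine enzyme, the glycine carrier Slc6a9 (1.84 ± 0.34), Slc1a5 (1.30 ± 0.26), the kinase Eif2ak1 (1.19 ± 0.27) and the mitochondrial protease Lonp1 (1.16 ± 0.18). Other probe sets gave 0.395 for Slc6a9, 0.544 to 0.935 for Shmt2 and 0.716 to 0.831 for Eif2ak1. Of the 76 genes of the 7 lists 13 were higher and 16 lower in this comparison. With the split as a term 1 was higher and 3 lower, beside 405 genes called in all, and none of the genes named here as higher passed. Without the arrays of high Gapdh ratio 5 were higher and 13 lower, beside 1055 called in all. Against KO_Adult 7 of the 76 listed genes were higher: Eif2ak3, Eif2ak1, Aldh18a1, Slc3a2, Aars, Pdia6 and Lonp1, by 0.69 to 1.4, beside 3.71% of all genes. Other probe sets went the opposite way for Pdia6 (-0.66) and Eif2ak3 (-0.90 to -0.10), but not for Eif2ak1, Aldh18a1 and Aars. Stc2 (-1.57 ± 0.43) and Hars (-0.86 ± 0.23) were lower, beside 3.6%, with their other probe sets at 0.37 and 0.24. Without the arrays of high Gapdh ratio, and likewise on the arrays without poly-A signal only, none of the 76 passed in limma in either direction, while 12 and 18 had an unadjusted p under 0.05. Of all genes, 115 and 5 were called in these settings.

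Marker genes of other cell types also differed between the groups. For KO_Aged against WT_Adult, the background to the marker counts is that 12.5% of tested genes passed upward and 12.3% downward. Against WT_Adult all 5 tested neutrophil markers were higher, led by S100a8 (3.72 ± 0.58), S100a9 (3.97 ± 0.68) and Mmp9 (1.83 ± 0.43). The summed signal of the 7 measured was 7120 to 13110 in KO_Aged, 489.7 to 4562 in KO_Adult, 2573 to 13500 in WT_Aged and 560.4 to 1800 in WT_Adult. The median difference of the 5 was 2.72 from WT_Adult, 1.71 from KO_Adult and 0.50 from WT_Aged. Against WT_Aged 0 of the 5 were called, and all 5 were higher in WT_Aged than in WT_Adult, beside 17.9% of all genes. Of 11 tested macrophage markers 5 were higher and 1 lower than in WT_Adult, led by Mrc1 (1.55 ± 0.31), Msr1 (2.19 ± 0.50) and Ctss (1.41 ± 0.34), with sums over the 12 measured of 7746 to 14020 in KO_Aged, 4846 to 9087 in KO_Adult, 4319 to 14380 in WT_Aged and 4226 to 7144 in WT_Adult. Against WT_Aged 0 of the 11 were called, and 5 were higher in WT_Aged than in WT_Adult, beside the same 17.9%. Both tested genes of dividing cells, Mcm6 (2.57) and Pcna (1.22), were higher, and the sum of the 7 measured was 3023 to 3619 in KO_Aged, 1790 to 2669 in KO_Adult, 1869 to 2574 in WT_Aged and 1142 to 1612 in WT_Adult. Most of that sum was Pcna, at 2482 to 2913 in KO_Aged and 944.5 to 1339 in WT_Adult. The other measured genes of this list were too dim to test and overlapped between KO_Aged and WT_Adult. Mcm6 and Pcna were also higher in KO_Aged than in KO_Adult, beside 3.71% of all genes, and than in WT_Aged, beside 17.1%. Both were higher in KO_Adult than in WT_Adult as well, beside 7.21%. Of 8 endothelial markers 6 were lower than in WT_Adult, with sums of 2701 to 3601 in KO_Aged, 2661 to 3021 in KO_Adult, 3900 to 4770 in WT_Aged and 5878 to 7277 in WT_Adult. In KO_Adult 7 of the 8 were lower than in WT_Adult, beside 9.39% of all genes. Of 6 tested markers of satellite cells and regenerating fibres 3 were higher, Myh3 (1.88 ± 0.31), Chrna1 (1.22 ± 0.34) and Myh8, and Myod1 was lower (-1.30 ± 0.18). Sums of other lists stood apart from WT_Aged, a comparison in which 17.1% of all genes were called higher and 12.3% lower. The sum of 8 fibroblast markers was 22220 to 31480 in KO_Aged against 10650 to 19000 in WT_Aged, with Col3a1 (1.86 ± 0.30) and Col1a1 (3.71 ± 0.69) higher. Their other probe sets gave 1.33 for Col3a1 and 0.69 for Col1a1. The sum of 4 adipocyte markers was 5242 to 8642 against 11560 to 13550, with Fabp4 lower (-0.96 ± 0.25). Most of this sum was Fabp4 itself, at 4956 to 8478 against 11170 to 13340. Adipoq, at 123.9 to 400.8 against 72.39 to 303.1, and the untested adipocyte markers overlapped between KO_Aged and WT_Aged. In the adult groups fibroblast sums were 13680 to 33630 in KO_Adult and 20690 to 25570 in WT_Adult, and adipocyte sums 4703 to 10460 in KO_Adult and 6223 to 12180 in WT_Adult. The part of these cells in the levels of Asns, Mthfd2, Trib3 and Psat1 was not tested, and in whole muscle a change in the number of cells of a type and a change in RNA per cell cannot be told apart.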

How the data were processed

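RNA of 19 mouse muscles was measured on single-colour arrays, in 4 groups taken from the labels. The intensity values, on a linear scale, were deposited by the authors as 1 value per probe set and array. Per the submitters' processing notes the tool was MAS5, in a version not given in the sources used here. RNA came from an RNeasy kit and was labelled as biotinylated cRNA, per the labels' protocols. The number of arrays limits the precision.

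The members, the gene lists, the tests and the alternatives were chosen with earlier results of these data known. Of 22690 probe sets, 64 of them controls, 20380 had 1 symbol in the platform annotation, 691 several and 1619 none; only the first kind was used. Values were transformed to log2(value + 4.76), the 10th percentile of all values, which understates folds of dim genes. Array medians spanned 0.63, so arrays were quantile normalized. The upper 60% of genes by mean were tested with limma 3.58.1 in R 4.3.3, with 1 mean per group over all 19 arrays, and called where the p adjusted by Benjamini-Hochberg over 7436 genes was under 0.05. Genes named are the 10 members, Des, up to 4 genes of smallest p per pathway list and comparison, 3 per marker list and the 5 most correlated with Asns, Mthfd2 and Trib3; Myh8 was named after its values were seen. Replicates are numbered in accession order. The fit was tested on simulated data. Alternatives covered normalization, pseudocount, filter, probe summary, variance model, array weights, poly-A split, Gapdh ratio, groups in the fit, threshold and each array left out. Plots were drawn in matplotlib 3.10.9, and tables were handled with numpy 2.4.6 and pandas 2.3.3 under Python 3.11.15.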

Additional observations from a re-analysis of the deposited data

Results flagged for a closer look

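For 5 genes the difference between knockout and wild-type muscle differed between aged and adult mice in a test of that interaction. The interaction was 2.62 for Trib3, 1.92 for Psat1, 1.73 for Asns, 1.51 for Mthfd2 and 0.91 for Atf5 on the log2 scale, each as (KO_Aged minus WT_Aged) minus (KO_Adult minus WT_Adult). Trib3 was tested only because its KO_Aged arrays lifted it over the filter on dim genes. None of the 5 passed with the poly-A split as a term, as given in the report. By its second probe set the interaction of Psat1 was -0.58 and did not pass. Trib3 also had 1 WT_Aged array far from the others of its group: replicate 5 had a signal of 15.9, against 47.88 to 52.32 on the other 4, and its gap took 0.798 of the group's range in log2 values. This was 1 of 36 groups of arrays examined in this way, and chance flags about 1 in 20. Without that array Trib3 differed by 2.18 between KO_Aged and WT_Aged, while its difference between WT_Aged and WT_Adult was -0.60 and no longer passed (adjusted p = 0.107).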

How the results depend on the processing

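Asns and Mthfd2 against WT_Adult and Mthfd2 against KO_Adult were called under every alternative run, and Asns, Mthfd2, Trib3 and Psat1 kept their direction in all 3 comparisons of KO_Aged. The limits are groups of 4 or 5 arrays, 2 KO_Aged arrays with a high Gapdh ratio and a poly-A split that crosses the groups. Counts below are of the 8 genes, Trib3 included (fewer where the filter removed members), and, after them, of all genes; the cause of a moved count was not tested unless fewer genes or arrays were used. No paired analysis was possible because replicate numbers come from accession order, and the codes in the sample titles are not said to mark a shared animal, litter or day. Leaving out 1 array at a time gave 3 to 4 of the 8 genes higher against WT_Aged, 3 to 4 against KO_Adult, 4 to 6 against WT_Adult and 4 to 5 for the interaction, with 1564 to 2319, 187 to 724, 1329 to 1961 and 1394 to 2334 genes in all. The 187 came without KO_Aged replicate 3, and 321 without KO_Adult replicate 5, against 544. KO_Adult against WT_Adult kept 1 lower, with 744 (without WT_Adult replicate 3) to 1521 in all. WT_Aged against WT_Adult gave 0 to 2 higher and 0 to 2 lower in limma, with 2138 to 3111 in all, where an unadjusted p under 0.05 was reached by 2 to 4 and by 2; the calls of Mthfd2, Trib3, Atf5 and Phgdh there each failed without some single arrays of either group.

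With the poly-A split as a term, 2 were higher against WT_Aged (405 in all, against 2187), KO_Adult against WT_Adult had 496 in all (against 1234), and WT_Aged against WT_Adult had 0 higher and 0 lower (7 in all, against 2890; 0 and 1 at an unadjusted p under 0.05). The interaction had 0 (2 in all, against 1870; 3 at an unadjusted p under 0.05). On the arrays without poly-A signal only, KO_Aged against KO_Adult had 1 higher (5 in all) and KO_Adult against WT_Adult 0 lower (107 in all; 3 at an unadjusted p under 0.05). Without the arrays of high Gapdh ratio, KO_Aged had 2 higher against WT_Aged (1055 in all), 2 against KO_Adult (115) and 3 against WT_Adult (974), and the interaction 3 (1079). With this and the split as a term the counts were 1 (560), 2 (928) and 3 in the same order, 2 lower in KO_Adult against WT_Adult (588), 0 and 0 in WT_Aged against WT_Adult (5), and 0 for the interaction (0 in all; 3 and 1839 at an unadjusted p under 0.05). With both kinds of array left out, a setting chosen after seeing the data, KO_Aged had 1 higher against KO_Adult (12) and 2 against WT_Adult (706), and KO_Adult 0 lower against WT_Adult (114; 3 at an unadjusted p under 0.05).

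At an adjusted p under 0.01 KO_Aged against WT_Adult had 3 higher (868), the interaction 3 (804), KO_Adult against WT_Adult 0 lower (501), WT_Aged against WT_Adult 0 and 0 (1519), and KO_Aged against WT_Aged and KO_Adult 1161 and 112 in all. Array weights gave 1272 in all against KO_Adult, 2783 against WT_Adult, 3945 for the interaction, 3807 for KO_Adult against WT_Adult and, for WT_Aged against WT_Adult, 1 higher and 4635 in all. Testing the upper 40% of genes, which dropped members, gave 2, 2 and 3 higher in KO_Aged, 3 for the interaction, and 1 higher and 1 lower in WT_Aged against WT_Adult. With no filter, KO_Aged against KO_Adult had 357 in all, and WT_Aged against WT_Adult 1 higher and 0 lower (2 at an unadjusted p under 0.05). Only the groups compared in the fit gave 51 in all for KO_Aged against KO_Adult, 623 for KO_Adult against WT_Adult, and 1 lower for WT_Aged against WT_Adult. Median centring gave 0 lower in KO_Adult (1 at an unadjusted p under 0.05) and 1 lower in WT_Aged, and no normalization gave 2 lower in KO_Adult and 1 higher in WT_Aged, each against WT_Adult. The mean of all probe sets gave 1 higher and 1 lower in WT_Aged against WT_Adult, where Phgdh was -0.025 (adjusted p = 0.95), against 1.08 as reported.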
